A study of Mus musculus with 23 samples.

Results

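Mitochondrial biogenesis, the making of new mitochondrial mass and respiratory capacity, is run largely from the nucleus, and 10 of its regulators were followed here as transcripts. They were taken by gene symbol from the 32793 genes of the deposited tables. They are the coactivators Ppargc1a and Ppargc1b, the nuclear receptors Esrra, Esrrg, Ppara and Ppard, the nuclear respiratory factors Nrf1 and Gabpa, and the mitochondrial transcription factors Tfam and Tfb2m. All 10 symbols were found, and the 10 were among the 14187 genes that passed the filter on low counts. Esrrg passed that filter only through the day 6 libraries labelled KO, where it was high, so that it had to differ there. Its day 6 values are given as a description with no test. It is left out of counts of members called, except for the counts under alternatives in the closing section, where this is said. Ppara passed through 5 libraries, of which 3 were also those of day 6 labelled KO.

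The PGC-1 coactivators, encoded by Ppargc1a and Ppargc1b, bind no DNA themselves. They dock on the estrogen-related receptors, on the Ppar receptors and on the nuclear respiratory factors, whose target genes encode the respiratory chain and the factors that copy and transcribe mitochondrial DNA. In skeletal muscle this circuit sets oxidative capacity, and Ppargc1a is known as its exercise-responsive member.

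C2C12, a line of mouse myoblasts that form myotubes once serum is withdrawn, was sampled as control cells (labelled WT) and as cells labelled Runx1KO. Day 0 is growth medium with 20% FBS (fetal bovine serum), and days 1, 3 and 6 count from the change to differentiation medium with 2% horse serum; the series text puts the last harvest at 5 days instead, whereas the day is given here as in the titles. Poly(A) RNA-seq libraries numbered 3 per group in 7 of 8 groups and 2 in WT day 0. The labels do not say how the knockout was made, whether either line is 1 clone, or whether replicates were separate cultures, so p-values measure the spread between these libraries.

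The 23 libraries held 22197606 to 23684077 estimated counts each. Values are given as CPM, a gene's count relative to its library's total after scaling by the trimmed mean of M values (TMM), and levels of different genes are compared only as TPM, which corrects for transcript length. On no day was Runx1 mRNA below WT in KO-labelled libraries (119.8 ± 2.15, SD, n = 3, against 84.0 ± 0.0494 CPM, SD, n = 2, on day 0, and 311 ± 11.8 against 153 ± 10.4 CPM, SD, n = 3 each, on day 6), so that the gene count does not bear the label out; the labels do not give the position of the edit. Myoblast markers (6 of 6) and, after day 0, myotube markers (7 of 7) were present. Of the adipocyte markers Adipoq, Cidec, Lep and Retn were at 0 in all libraries, and of the macrophage markers Adgre1 was at 0 and Ptprc reached at most 0.01 TPM.

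The library of day 1 labelled KO, replicate 2, stood apart from its replicates. Pairs with it differed by 61.7 and 62.1 in chi-square per degree of freedom, against 3.13 to 28.0 in the other pairs of replicates. Its log2 CPM minus the mean of its 2 replicates fell with the GC content of transcripts, from a median of 0.38 in the fifth of genes with the lowest GC to -0.44 in the fifth with the highest. Among the members, Gabpa, with a median transcript GC of 41.4%, was 0.54 higher, Tfb2m (42.5%) 0.29, Tfam (43.4%) 0.47 and Ppargc1a (48.3%) 0.082 higher, whereas Nrf1 (51.7%) gave -0.20, Ppargc1b (57.8%) -0.064, Ppard (59.8%) -0.74 and Esrra (62.3%) -0.30. The sign followed that slope in these 8, but the size did not follow GC evenly, with Ppargc1b close to 0. Day 1 values of the members in KO-labelled libraries are therefore given with and without this library.

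**Figure D1:**
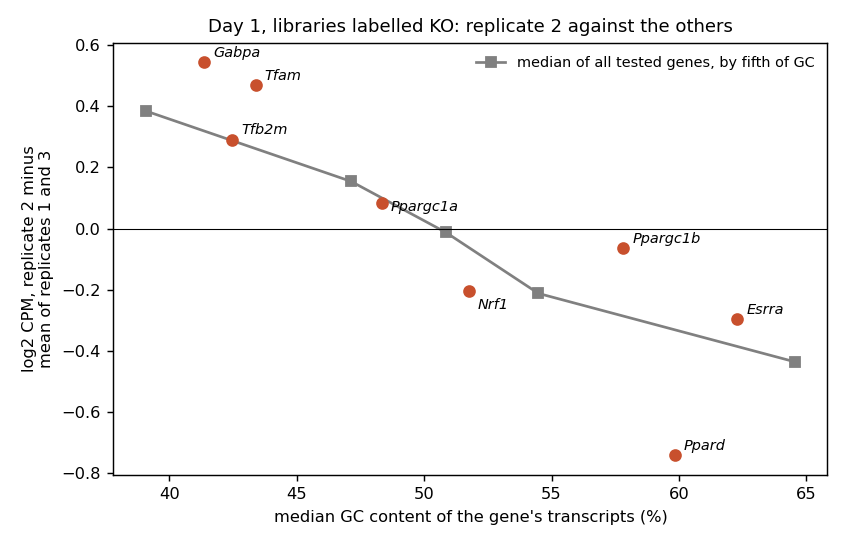
Deviation of replicate 2 from the mean of replicates 1 and 3 among the day 1 libraries labelled KO (y axis, log2 CPM) against the median GC content of each gene's transcripts (x axis, %). Grey squares are medians of all tested genes with known GC in 5 equal groups, from 0.38 down to -0.44; orange points are 8 members, with Gabpa at 0.54 and Ppard at -0.74. Esrrg and Ppara, at few counts, are not drawn.

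The members spanned a wide range of levels. On the TPM scale, averaged over all libraries, Ppard had the highest level at 80.2 TPM (55.8 to 92.9 over libraries), followed by Esrra at 37.7 TPM (30.6 to 50.4) and Gabpa at 29.6 TPM (22.3 to 49.4). The middle members were Tfb2m at 25.0 TPM, Nrf1 at 19.9 TPM and Tfam at 15.4 TPM. The coactivators were lower, Ppargc1b at 4.38 TPM (2.76 to 5.98) and Ppargc1a at 1.78 TPM (0.21 to 3.49), and the averages of both were above those of Ppara (0.071 TPM, 0.01 to 0.18) and Esrrg (0.070 TPM, 0 to 0.48). The lowest Ppargc1a libraries, those of WT day 0 at 0.21 and 0.24 TPM, nevertheless lay below the day 6 KO-labelled libraries of Esrrg (0.31 to 0.48 TPM). The library ranges of neighbours in this order overlapped from Esrra down to Tfam, for Ppargc1b with Ppargc1a, and for Ppara with Esrrg; Ppard stood clear of Esrra, and Tfam of Ppargc1b.

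**Figure D2:**
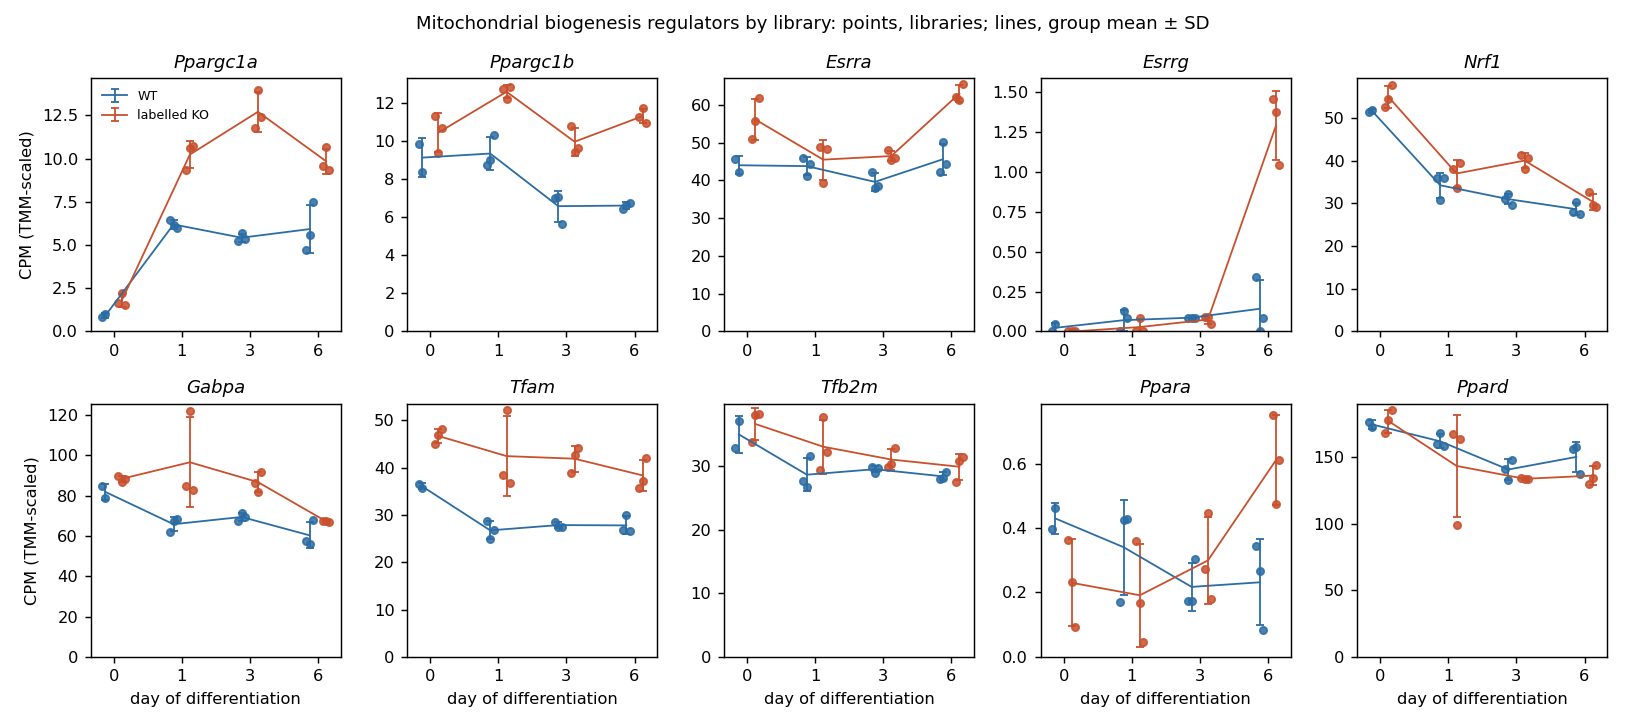
Level of each of the 10 regulators (y axis, TMM-scaled CPM, from 0) by day of differentiation (x axis, days 0, 1, 3 and 6, evenly spaced). Points are libraries and lines join group means ± SD, blue for WT and orange for KO-labelled libraries; n = 3 per group, 2 for WT day 0. Ppargc1a lies at 0.836 to 2.24 CPM on day 0 and at 4.73 to 14.0 CPM later, and Esrrg is at 1.05 CPM or above in the day 6 libraries labelled KO and at 0.344 CPM or below in all others.

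The study compared genotypes on each day. With Esrrg left out, the number of members higher in KO-labelled libraries was 3 of 9 on day 0, 4 of 9 on day 1, 6 of 9 on day 3 and 5 of 9 on day 6, where a call means a Benjamini-Hochberg adjusted p below 0.05 over all tested genes in the quasi-likelihood F-test of edgeR. None was lower on any day with edgeR, DESeq2 or limma, nor with edgeR at an unadjusted p under 0.05. The day 0 count was 1 in place of 3 without WT replicate 1, WT replicate 2, KO replicate 2 or KO replicate 3. With any 1 library left out, the day 3 count was 4 to 5 in place of 6. The day 6 count takes in Ppara, whose call was lost in 9 of 14 alternatives. Among all 14187 genes tested, 7.36%, 22.9%, 24% and 22% were called higher and 10.1%, 19.2%, 19.2% and 20.8% lower on those days. Groups did not overlap for 51.6%, 47.1%, 60.4% and 51.7% of all tested genes, so that a gap between 3 libraries and 3 others is common here. The median log2 fold change (log2FC) of these 9 members was 0.11, 0.21, 0.37 and 0.47, against -0.0011, 0.029, 0.040 and 0.0037 over all tested genes. Without KO day 1 replicate 2 the day 1 median was 0.16, the value of Nrf1, against 0.0043 over all tested genes. The calls of Ppargc1a, Ppargc1b and Tfam on days 1, 3 and 6, of Gabpa on day 1, of Nrf1 on day 3, and of Esrra on day 6 held under every alternative in which they were tested. In these bulk samples fewer cells of a kind and less RNA per cell cannot be told apart.

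**Figure D3:**
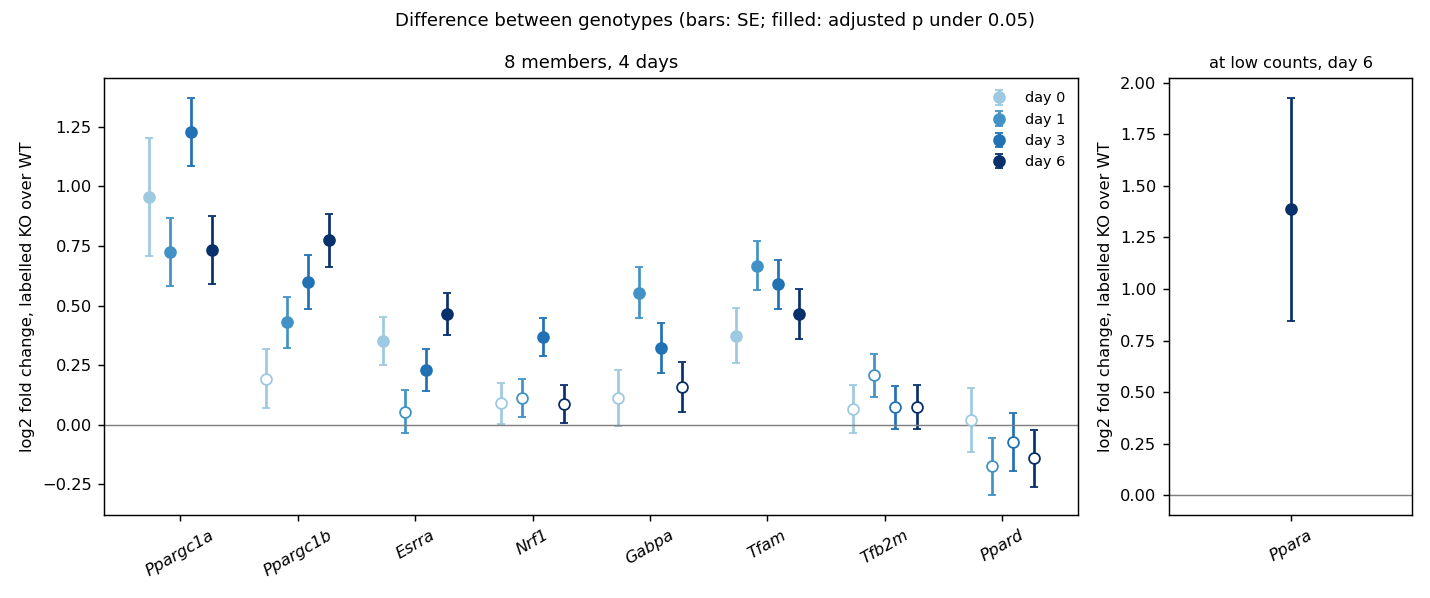
Log2 fold change of each member between KO-labelled libraries and WT (y axis; bars are SE) on days 0, 1, 3 and 6 (light to dark blue). Filled points passed an adjusted p of 0.05 in edgeR's test; the right panel has its own scale and shows Ppara (1.39), at few counts, on day 6. Esrrg is not drawn. Ppargc1a and Tfam are filled on all 4 days, Tfb2m and Ppard on none.

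Myotube markers moved with the genotype. The summed TPM of 7 of 7 myotube markers was 11973 to 14065 in the day 6 libraries labelled KO and 2031 to 2542 in those of WT, 4052 to 7307 against 2487 to 2704 on day 3, 166 to 218 against 53.2 to 96.4 on day 1, and 3.35 to 3.68 against 2.26 to 2.36 on day 0. The summed TPM of the 6 myoblast markers was higher in KO-labelled libraries on days 0, 3 and 6 too, and overlapped on day 1. It was 1518 to 1569 against 1148 to 1169 TPM on day 0, 2108 to 2298 against 1714 to 1807 on day 3, and 2454 to 2582 against 1555 to 1855 on day 6. In this sum Des, Itga7 and Myod1 reached up to 1589, 612 and 473 TPM, and Pax7 and Myf5 at most 33.2 and 47.8 TPM. Single myoblast markers were not compared between genotypes. The part of these differences in the levels of the regulators and of the respiratory genes was not tested. Summed macrophage markers were higher on day 6 in KO-labelled libraries (15.7 to 17.5 against 5.62 to 9.34 TPM), nearly all of it Cd68 (up to 17.02 TPM), and lower on days 0 and 1 (1.96 to 2.76 against 2.99 to 3.04 TPM and 1.28 to 2.18 against 2.40 to 2.61 TPM). Adipocyte markers were lower on every day, at 1.57 to 2.26 against 6.61 to 7.07 TPM, 5.88 to 11.08 against 17.55 to 18.3, 8 to 8.52 against 14.81 to 15.61, and 11.6 to 13.7 against 20.5 to 24.3, nearly all of it Cebpa. Neuron or glia markers, nearly all of it the tubulin Tubb3 with Rbfox3 and Sox10 at or near 0, were lower on day 6 (23.7 to 27.5 against 45.3 to 53.3 TPM) and on day 0 (122 to 138 against 142 to 147 TPM), and higher on day 1 (119.5 to 150.4 against 83.4 to 95.1 TPM). Endothelial markers summed to at most 0.65 TPM in any library. The part of these lists in the results was not tested either.

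Ppargc1a encodes PGC-1 alpha, the coactivator most tied to oxidative muscle. In growth medium it was at 0.836 and 1.02 CPM in WT and at 1.63, 2.24 and 1.53 CPM in KO-labelled libraries. On day 1 the WT libraries held 6.46, 6.15 and 5.98 CPM and those labelled KO 9.34, 10.6 and 10.7 CPM. On both days every library labelled KO lay above every WT library.

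On day 3 Ppargc1a was at 5.22, 5.68 and 5.38 CPM in WT and at 11.8, 14.0 and 12.4 CPM in KO-labelled libraries. On day 6 the values were 4.73, 5.59 and 7.46 CPM against 9.57, 10.7 and 9.32 CPM. The groups again did not overlap, although WT day 6 was the most spread of them (5.93 ± 1.40 CPM, SD, n = 3).

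Ppargc1a was thus higher in KO-labelled libraries on all 4 days. In edgeR's quasi-likelihood test its log2FC was 0.96 on day 0 (SE 0.249, adjusted p = 0.00876), a fold of 1.94 between groups that held only 41 and 117 counts in all. It was 0.72 on day 1 (SE 0.142, edgeR adjusted p = 0.000259), 1.23 on day 3 (SE 0.142, edgeR adjusted p = 2.64e-07) and 0.73 on day 6 (SE 0.142, edgeR adjusted p = 0.00021). Without replicate 2 of the day 1 libraries labelled KO, the day 1 value was 0.67 (edgeR adjusted p = 0.00133). The day 0 call was lost without WT replicate 1 (0.84, edgeR adjusted p = 0.128), without KO replicate 2 (0.77, edgeR adjusted p = 0.0538) and on the log2(TPM + 1) scale (0.20, limma adjusted p = 0.319), where an offset of 1 exceeds the gene's own level.

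The larger movement of Ppargc1a was in time. From growth medium to day 1 it rose in WT by 2.74 on the log2 scale (SE 0.219, edgeR adjusted p = 3.7e-10), a fold of 6.66, and it stayed up on day 3 (2.54) and day 6 (2.67). In KO-labelled libraries the rise over day 0 was 2.50, 2.82 and 2.45 (edgeR adjusted p = 2.21e-11, 8.53e-13 and 5.46e-12), with 2.48 on day 1 without replicate 2. The rise did not differ detectably between genotypes: the interaction was -0.23 on day 1, 0.27 on day 3 and -0.22 on day 6 (edgeR adjusted p = 0.724, 0.659 and 0.708, SE 0.287 to 0.297). On the log2(TPM + 1) scale the day 3 interaction was 0.53 (limma adjusted p = 0.0406). In order of level the groups ran from KO day 3 (12.7 CPM) through KO day 1 and KO day 6, whose libraries overlapped, to the 3 later WT groups, which overlapped in the order given by their means, and last to KO day 0 and WT day 0.

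The gene spans chr5:51454250-51567726 on the minus strand (GRCm38, GENCODE). For this gene the 250 bases before the transcript start are shown, since it has the largest range of group means among members present in every library (3.78 on the log2 CPM scale). They lie at chr5:51567726-51567975 on the minus strand (GRCm38.p6, RefSeq):
Ppargc1a: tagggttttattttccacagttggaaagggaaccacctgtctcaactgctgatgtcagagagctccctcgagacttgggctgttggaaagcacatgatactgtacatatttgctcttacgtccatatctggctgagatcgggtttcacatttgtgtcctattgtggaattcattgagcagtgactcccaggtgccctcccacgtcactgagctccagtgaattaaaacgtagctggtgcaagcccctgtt
The sequence is in lower case throughout because none of 6 motifs searched on both strands was found in it: ETS (CCGGAAGT), Nrf1 (GCGCATGCG), estrogen-related receptor (TCAAGGTCA), Runx (TGTGGT), CRE (TGACGTCA) and a muscle E-box (CAGCTG).

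The RefSeq table matched 9 of the 10 members, with 13 windows of 250 bases. Of 32851 such windows in the table, 2.88% held the ETS motif, 1.45% the Nrf1 motif, 0.387% the receptor motif, 14.0% the Runx motif, 1.55% the CRE and 13% the E-box. Among the members, Tfam held the ETS motif, Ppara the Nrf1 motif on both strands at overlapping positions, and Ppard the E-box at 2 positions. No window of these 9 members held the receptor, Runx or CRE letters.

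Ppargc1b encodes PGC-1 beta, the second coactivator of the family, which shares most of the partners of PGC-1 alpha. In growth medium it was at 9.85 and 8.38 CPM in WT and at 11.3, 9.34 and 10.7 CPM in KO-labelled libraries, and the groups overlapped. On day 1 the values were 8.71, 8.99 and 10.3 CPM in WT against 12.7, 12.2 and 12.8 CPM. From this day on every library labelled KO lay above every WT library of its day.

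On day 3 Ppargc1b was at 7.01, 7.06 and 5.64 CPM in WT and at 10.8, 9.43 and 9.65 CPM in KO-labelled libraries. On day 6 it was at 6.40, 6.65 and 6.75 CPM in WT and at 11.2, 11.7 and 10.9 CPM in the others. By then WT lay below all of its growth-medium libraries, and KO-labelled libraries lay at 10.9 to 11.7 CPM.

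The log2FC of Ppargc1b between genotypes was 0.19 on day 0 (edgeR adjusted p = 0.331), 0.43 on day 1 (SE 0.108, edgeR adjusted p = 0.00259), 0.60 on day 3 (SE 0.112, edgeR adjusted p = 0.000145) and 0.77 on day 6 (SE 0.111, edgeR adjusted p = 5.01e-06). Without the day 1 replicate that stood apart, the day 1 value was 0.43 (edgeR adjusted p = 0.00448). Against growth medium it fell in WT, by 0.47 on the log2 scale on day 3 and again by 0.47 on day 6 (edgeR adjusted p = 0.0025 and 0.00245). In KO-labelled libraries it was 0.27 higher on day 1 (edgeR adjusted p = 0.04), or 0.30 without replicate 2 (edgeR adjusted p = 0.0318), while days 3 and 6 gave -0.069 and 0.11 (edgeR adjusted p = 0.612 and 0.354). Both WT falls were lost without WT day 0 replicate 1 (-0.31 and -0.30), and the day 1 rise without KO day 0 replicate 2 or 3 or KO day 1 replicate 1 or 3 (0.19, 0.28, 0.26 and 0.25).

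Ppargc1b was the only member for which edgeR called a difference between genotypes in the change over time. The interaction on day 6 was 0.58 (SE 0.165, edgeR adjusted p = 0.02), that is, a fold of 1.495; it was 0.24 on day 1 and 0.40 on day 3 (edgeR adjusted p = 0.474 and 0.133). No member passed the interaction test with edgeR or DESeq2 on days 1 and 3. At an unadjusted p under 0.05 with edgeR there were 2 on day 1 (Esrra and Gabpa) and 2 on day 3 (Ppargc1b and Nrf1), limma called 1 on day 3 (Ppargc1a), and Gabpa, at 0.44 on day 1 (edgeR adjusted p = 0.129), was called without KO day 1 replicate 3 (0.54, edgeR adjusted p = 0.034) and was at 0.19 without KO day 1 replicate 2 (edgeR adjusted p = 0.369). Without that replicate 2 the day 1 interactions of Ppargc1a, Ppargc1b, Esrra, Nrf1, Tfb2m, Ppara and Ppard were -0.30, 0.21, -0.25, 0.043, -0.0099, 0.10 and -0.034, against -0.23, 0.24, -0.30, 0.022, 0.14, 0.061 and -0.20 with it, none called. On day 6 the interaction of Ppara, at few counts, was 2.27 (SE 0.834, edgeR unadjusted p = 0.0123, adjusted p = 0.0782), not called. Among all genes 3.95%, 10.7% and 13% passed on days 1, 3 and 6. The day 6 interaction of Ppargc1b was lost in 6 of 20 alternatives: with no filter (edgeR adjusted p = 0.0581), on both TPM scales with limma, and without WT day 0 replicate 1 (0.41, edgeR adjusted p = 0.217), KO day 0 replicate 2 (0.51, edgeR adjusted p = 0.0624) or WT day 6 replicate 1 (0.51, edgeR adjusted p = 0.0667).

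The ratio of the 2 coactivators came down with differentiation. Ppargc1b over Ppargc1a on the TPM scale was 18.03 ± 4.40 (SD, n = 2) in WT and 11.05 ± 2.98 (SD, n = 3) in KO-labelled libraries on day 0. It was 2.72 ± 0.337 and 2.22 ± 0.192 on day 1, 2.18 ± 0.278 and 1.43 ± 0.216 on day 3, and 2.07 ± 0.401 and 2.07 ± 0.0825 on day 6 (SD, n = 3 each). Ppargc1b remained the more abundant transcript per length in every library, from 1.22 to 21.1 times the level of Ppargc1a, and on day 6 the ratio was the same to 3 digits in both genotypes.

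Esrra and Esrrg encode estrogen-related receptors, which bind the promoters of respiratory genes and depend on the PGC-1 coactivators for activity. The Esrra gene spans chr19:6910977-6921813 on the minus strand (GRCm38, GENCODE). Esrra was at 45.7 and 42.3 CPM in WT and at 51.0, 55.7 and 61.7 CPM in KO-labelled libraries on day 0. On day 6 it was at 42.2, 50.2 and 44.4 CPM against 62.0, 61.3 and 65.5 CPM. These are the days on which the genotypes lay farthest apart, with no overlap.

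On day 1 Esrra was at 45.8, 41.0 and 44.4 CPM in WT and at 48.9, 39.4 and 48.2 CPM in KO-labelled libraries, and the groups overlapped. On day 3 it was at 42.2, 37.9 and 38.6 CPM in WT and at 48.0, 45.4 and 45.9 CPM in the others. The libraries labelled KO thus dipped on days 1 and 3 and came back up, while WT stayed within 37.9 to 50.2 CPM over all days.

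The log2FC of Esrra between genotypes was 0.35 on day 0 (SE 0.1002, edgeR adjusted p = 0.0163), 0.055 on day 1 (edgeR adjusted p = 0.654), 0.23 on day 3 (SE 0.0895, edgeR adjusted p = 0.0414) and 0.47 on day 6 (SE 0.0885, edgeR adjusted p = 0.000161). Without day 1 replicate 2 of KO-labelled libraries, the day 1 value was 0.13 (edgeR adjusted p = 0.243). Over time Esrra fell in KO-labelled libraries, by 0.30 on day 1 and by 0.27 on day 3 (edgeR adjusted p = 0.00616 and 0.0111), where day 1 gave -0.20 without replicate 2 (edgeR adjusted p = 0.0425); day 6 lay 0.17 above day 0, not called (edgeR adjusted p = 0.0983). That rise was called in 6 of 15 alternatives: with library size only (0.24), with genes of mean count 50 or above only (0.23), with only the groups compared (0.18), on both TPM scales with limma (0.28 and 0.28) and without KO day 0 replicate 3 (0.24, edgeR adjusted p = 0.0336). WT passed edgeR's test on no day, but limma called day 6 on both TPM scales (0.22 and 0.23). The day 3 genotype call is a weak one: it was lost in 12 of 15 alternatives, among them every other scaling, filter and tool tried and the omission of any of 5 of the 6 libraries (WT replicates 2 and 3 and all 3 labelled KO, 0.16 to 0.25). The day 0 call was lost without WT replicate 2 (0.30, edgeR adjusted p = 0.174) or KO replicate 3 (0.28, edgeR adjusted p = 0.0935), and the falls on days 1 and 3 without KO day 0 replicate 3 (-0.23 and -0.20, edgeR adjusted p = 0.0542 and 0.0855).

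Esrrg, the receptor of this family that is typical of oxidative muscle and heart, was close to absent until day 6. It had 0 to 3 counts in each library of days 0, 1 and 3. On day 6 it had 8, 0 and 2 counts in WT and 33, 32 and 24 counts in KO-labelled libraries, which are 0.344, 0 and 0.0839 CPM against 1.46, 1.38 and 1.05 CPM. All 3 libraries labelled KO lay above all others of the series.

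Summed over the 3 libraries of a group, Esrrg had 89 counts on day 6 in KO-labelled libraries and 10 in WT. Within KO-labelled libraries its day 6 level was at least 9.34-fold higher than day 0, where all 3 libraries had 0 counts and a floor of 3 counts per library was used. Even at its highest Esrrg reached 0.48 TPM, below the lowest library of Esrra by a wide margin.

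Nrf1, nuclear respiratory factor 1, binds a palindrome in promoters of respiratory chain genes and of the mitochondrial transcription factors. It was highest in growth medium, at 51.4 and 51.9 CPM in WT and at 52.7, 54.4 and 57.7 CPM in KO-labelled libraries. By day 6 it had come down to 28.1, 30.3 and 27.6 CPM and to 32.6, 29.6 and 29.05 CPM. The day 0 libraries of both genotypes lay above all later ones.

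Nrf1 fell in WT by 0.59, 0.74 and 0.85 on the log2 scale on days 1, 3 and 6 (edgeR adjusted p = 4.01e-06, 1.63e-07 and 1.25e-08). In KO-labelled libraries it fell by 0.57, 0.46 and 0.85 (edgeR adjusted p = 1.89e-06, 2.75e-05 and 1.47e-09), with -0.50 on day 1 without replicate 2. No difference between the declines by day 6 was called (interaction -0.0028, SE 0.119). On day 3 WT held 31.1, 32.2 and 29.7 CPM and KO-labelled libraries 41.3, 38.0 and 40.7 CPM. Only there was a genotype difference called, of 0.37 (SE 0.0795, edgeR adjusted p = 0.000614); on days 0, 1 and 6 the log2FC was 0.089, 0.11 and 0.086 (edgeR adjusted p = 0.568, 0.276 and 0.413), with 0.16 on day 1 without replicate 2 (edgeR adjusted p = 0.113). Against day 0 the interaction on day 3 was 0.28, not called (edgeR adjusted p = 0.144). Whether the genotype difference of day 3 departs from those of days 1 and 6 was not tested.

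Gabpa encodes the DNA-binding subunit of nuclear respiratory factor 2, an ETS-family protein. On day 0 it was at 84.7 and 79.1 CPM in WT and at 89.97, 86.7 and 88.6 CPM in KO-labelled libraries. On day 1 WT held 61.9, 67.4 and 68.3 CPM and KO-labelled libraries 84.9, 122 and 82.7 CPM. The value of 122 CPM is that of the replicate that stood apart, and the other 2 also lay above WT.

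On day 3 Gabpa was at 67.3, 71.6 and 69.5 CPM in WT and at 86.2, 82.1 and 92.0 CPM in KO-labelled libraries. On day 6 it was at 57.3, 55.9 and 67.7 CPM and at 67.2, 67.5 and 67.2 CPM. The groups were separate on day 3 and overlapped on day 6.

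The genotype difference of Gabpa was 0.55 on day 1 (SE 0.106, edgeR adjusted p = 0.000207) and 0.33 without replicate 2 (edgeR adjusted p = 0.000939), which moved the value by more than 1.5 times but kept the call. It was 0.32 on day 3 (SE 0.106, edgeR adjusted p = 0.0172), and 0.11 on day 0 and 0.16 on day 6 (edgeR adjusted p = 0.614 and 0.247). The day 3 call was lost in 6 of 15 alternatives, among them the omission of WT replicate 1 or 2 or KO replicate 3 (0.30, 0.30 and 0.28). Over time Gabpa fell by 0.31 in WT on day 1 (edgeR adjusted p = 0.0274), a call lost without any of WT day 0 replicates 1 and 2 and WT day 1 replicates 1 and 2 (-0.36 to -0.22). WT day 3 gave -0.24, not called (edgeR adjusted p = 0.0884) except with only the groups compared (-0.22, edgeR adjusted p = 0.00339). It fell by 0.44 in WT, or 0.35 (-0.35, not called) without WT day 0 replicate 1, and by 0.39 in KO-labelled libraries from day 0 to day 6 (edgeR adjusted p = 0.00235 and 0.00216), whereas KO-labelled libraries gave 0.13 on day 1 and -0.07 without replicate 2, neither called (edgeR adjusted p = 0.324 and 0.43).

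Gabpa shares 397 exonic bases with Atp5j, a subunit gene of the ATP synthase on the opposite strand, and the strand setting of the counting is not given in the sources used here. Reads of the 2 genes in those bases cannot be told apart, so Gabpa is uncertain. Atp5j itself was higher in KO-labelled libraries on days 1, 3 and 6, by 0.27, 0.58 and 0.36 (edgeR adjusted p = 0.0464, 0.000123 and 0.00826). The day 1 call lies near the threshold, and its value is given only with KO day 1 replicate 2. Esrra shares 73 bases in the same way with Trmt112, for which no genotype difference was called (edgeR adjusted p = 0.0882 to 0.927), and 91 on the same strand with the microRNA gene Mir6990.

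Tfam encodes the protein that packages mitochondrial DNA and bends its promoters for transcription, and is a textbook target of both nuclear respiratory factors. The gene spans chr10:71225464-71238280 on the minus strand (GRCm38, GENCODE). Its promoter window held 1 match to the ETS motif, the type of site to which Gabpa binds, on the coding strand from 47 bases before the RefSeq start (-47). The 30 bases around it, in which capitals mark the motif, run from -58 to -29, at chr10:71238073-71238102 on the minus strand (GRCm38.p6, RefSeq):
Tfam: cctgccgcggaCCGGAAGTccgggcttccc
The match is a description of letters and no evidence of binding in these cells.

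Tfam was, with Ppargc1a, one of 2 members called higher on all 4 days. On day 0 it was at 36.5 and 35.6 CPM in WT and at 45.1, 47.0 and 48.1 CPM in KO-labelled libraries. On day 1 it was at 28.7, 24.8 and 26.7 CPM against 38.5, 52.2 and 36.7 CPM, where 52.2 CPM is again replicate 2. In growth medium and on day 1 the groups did not overlap, with or without that library.

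On day 3 Tfam was at 28.6, 27.4 and 27.5 CPM in WT and at 38.8, 42.6 and 44.2 CPM in KO-labelled libraries. On day 6 it was at 26.9, 29.98 and 26.5 CPM against 35.8, 37.2 and 42.1 CPM. WT libraries after day 0 reached at most 29.98 CPM, and those labelled KO were at 35.8 CPM or above on all days.

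The log2FC of Tfam between genotypes was 0.37 on day 0 (SE 0.115, edgeR adjusted p = 0.0265), 0.67 on day 1 (SE 0.104, edgeR adjusted p = 1.91e-05), 0.59 on day 3 (SE 0.104, edgeR adjusted p = 6.87e-05) and 0.47 on day 6 (SE 0.104, edgeR adjusted p = 0.000831). Without replicate 2 the day 1 value was 0.47 (edgeR adjusted p = 6.89e-05). The day 0 call was lost in 7 of 14 alternatives, among them the omission of either WT library (0.41 and 0.36) or of KO replicate 2 or 3 (0.37 and 0.35). Over time Tfam fell in WT by 0.43, 0.37 and 0.38 on days 1, 3 and 6 (edgeR adjusted p = 0.00293, 0.00823 and 0.00684). In KO-labelled libraries it fell by 0.28 on day 6 (edgeR adjusted p = 0.0167), and day 1 moved from -0.14 (edgeR adjusted p = 0.273) to -0.31 without replicate 2 (edgeR adjusted p = 0.00233). The WT falls were all lost without WT day 0 replicate 1 (-0.37, -0.32 and -0.32), the day 3 one also without WT day 3 replicate 2 (-0.31) and the day 6 one without WT day 6 replicate 1 or 3 (-0.30 and -0.28). The day 6 fall in KO-labelled libraries was lost without KO day 0 replicate 3 or KO day 6 replicate 1 or 2 (-0.26, -0.24 and -0.26). No difference in these declines was called (interaction 0.29, 0.22 and 0.092, edgeR adjusted p = 0.321, 0.449 and 0.792), and that of day 1 was 0.072 without KO day 1 replicate 2 (edgeR adjusted p = 0.838).

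Tfb2m encodes the factor that opens the mitochondrial promoter for the RNA polymerase. It ran from 26.7 to 38.2 CPM over all libraries and no genotype difference was called on any day (log2FC 0.066, 0.21, 0.073 and 0.075, edgeR adjusted p = 0.741, 0.0711, 0.546 and 0.544); on the TPM scales the values of days 0, 3 and 6 were below 0 instead. On day 1 the value was 0.081 without KO replicate 2 (edgeR adjusted p = 0.495), and it was called without WT replicate 3 (0.28, edgeR adjusted p = 0.0273) or KO replicate 1 (0.29, edgeR adjusted p = 0.0181). Tfam and Tfb2m, which act at the same promoters, thus had 4 genotype calls and none with edgeR, but the difference between the 2 genes was not tested. Over time Tfb2m fell in WT by 0.29, 0.25 and 0.30 on days 1, 3 and 6 (edgeR adjusted p = 0.0188, 0.0411 and 0.0123). These calls were lost without WT day 0 replicate 2 (-0.20, -0.16 and -0.22). The day 1 call was also lost without WT day 1 replicate 1 or 2 (-0.21 and -0.19), the day 3 call without any 1 of the WT day 3 libraries or WT day 0 replicate 1 (-0.29 to -0.19), and the day 6 call without WT day 6 replicate 1 or 3 (-0.24 and -0.26). The libraries labelled KO gave -0.15 on day 1 (edgeR adjusted p = 0.179), and -0.25 without replicate 2 (edgeR adjusted p = 0.0187). There it fell by 0.24 on day 3 and by 0.29 on day 6 (edgeR adjusted p = 0.0275 and 0.00629), the former lost without KO day 0 replicate 2 or 3 or KO day 3 replicate 1 or 2 (-0.22 to -0.21).

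Ppard, the Ppar receptor of the greatest abundance in these cells, ran from 98.8 to 185 CPM; the 98.8 CPM is day 1 replicate 2 of KO-labelled libraries, and the next lowest library was at 129.9 CPM. No genotype difference was called on any day (log2FC 0.021, -0.18, -0.073 and -0.14, edgeR adjusted p = 0.952, 0.256, 0.653 and 0.367), and on day 1 the value was 0.011 without replicate 2. In KO-labelled libraries it fell by 0.41 on day 3 and by 0.38 on day 6 (edgeR adjusted p = 0.00611 and 0.00757); its day 1 fall of 0.30 (edgeR adjusted p = 0.0374) was -0.09 without replicate 2 (edgeR adjusted p = 0.268) and was also lost without KO day 0 replicate 2 or 3 (-0.30 and -0.27). WT gave -0.31 and -0.22 on days 3 and 6, not called (edgeR adjusted p = 0.05 and 0.161). The WT day 3 fall was called with no filter (-0.34, edgeR adjusted p = 0.0115), with only the groups compared (-0.29, edgeR adjusted p = 0.000225) and with the replicate block (-0.33, edgeR adjusted p = 0.0434). No interaction was called (edgeR adjusted p = 0.612 to 0.826).

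Ppara, the receptor that drives fatty acid oxidation in liver and oxidative muscle, had 1 to 17 counts per library and lay near the filter's minimum of 10 counts. On day 6 it had 0.344, 0.266 and 0.0839 CPM in WT and 0.750, 0.473 and 0.610 CPM in KO-labelled libraries. These groups did not overlap, with a log2FC of 1.39 (SE 0.539, edgeR adjusted p = 0.0415), but the call was lost in 9 of 14 alternatives, among them the omission of WT replicate 2 or 3 (1.497 and 0.95) or of KO replicate 1 or 3 (1.19 and 1.39). Against day 0 KO-labelled libraries were 1.38 higher on day 6 (edgeR adjusted p = 0.0279), lost without KO day 0 replicate 2 or 3 or KO day 6 replicate 1 or 3 (1.02 to 1.39). Between genotypes days 0, 1 and 3 gave -0.88, -0.82 and 0.45, none called (edgeR adjusted p = 0.406, 0.292 and 0.572), with -0.76 on day 1 without replicate 2.

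The study also compared each day with growth medium. With Esrrg left out, in WT 1 of 9 members rose (Ppargc1a) on each of days 1, 3 and 6, and 4, 4 and 5 fell, against 27.1%, 29.2% and 32.6% of all tested genes called higher and 27.6%, 29% and 31.1% lower. Those that fell were Nrf1, Tfam and Tfb2m on all 3 days, Gabpa on days 1 and 6, and Ppargc1b on days 3 and 6. In KO-labelled libraries 2, 1 and 2 of the 9 rose on days 1, 3 and 6 and 3, 4 and 5 fell, against 27.2%, 30.4% and 36.6% of all tested genes higher and 25.2%, 27.2% and 33.5% lower. The members that rose there were Ppargc1a on each day, Ppargc1b on day 1, and Ppara on day 6. Without KO day 1 replicate 2 the day 1 fall of Ppard was lost and those of Tfam and Tfb2m were called.

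The number of members called rested in part on single libraries. In WT it was 3 in place of 5 on day 1 without WT day 0 replicate 1 or 2 or WT day 1 replicate 1 or 2. On day 3 it was 2 in place of 5 without WT day 0 replicate 1 and 3 without WT day 3 replicate 2, and on day 6 it was 3 in place of 6 without WT day 0 replicate 1. In KO-labelled libraries it was 3 and 2 in place of 5 on day 1 without KO day 0 replicate 2 and 3, and 3 in place of 5 on day 3 without KO day 0 replicate 3. Ppargc1a and Nrf1 kept their calls against day 0 in both genotypes under every omission and every other alternative run.

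Scaling moves the level to which all genes are compared. On the log2(TPM + 0.1) scale the median log2FC of all tested genes between genotypes was -0.11 on day 3 and -0.12 on day 6, instead of 0.040 and 0.0037, and against day 0 in WT it was 0.14, 0.18 and 0.20, instead of 0.015, 0.021 and 0.047. The share of higher calls among genotype calls was 42.1%, 54.4%, 55.5% and 51.4% with TMM and 30.2%, 43.4%, 34.3% and 34.7% on that TPM scale, and 29.5% on day 0 with library size alone. In WT over time it was 49.6%, 50.1% and 51.2% with TMM and 61.2%, 64.6% and 63.9% on that TPM scale. In KO-labelled libraries over time the median was 0.16, 0.12 and 0.15 on that TPM scale, instead of 0.035, 0.046 and 0.047, and the share of higher calls 66.3%, 61.1% and 59.2%, instead of 51.9%, 52.7% and 52.2%. For the interactions of days 1 and 3 that share was 66.8% and 62.1% with TMM and 54.6% and 47.6% on that TPM scale. On both TPM scales the WT falls of Ppargc1b, Tfam, Tfb2m and Gabpa were not called on any day (limma), while Nrf1 was.

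The genes on which the regulators act were counted from lists of known partners and targets. Each list's counts on days 0, 1, 3 and 6 stand against the 7.36%, 22.9%, 24% and 22% of all tested genes called higher between genotypes and the 10.1%, 19.2%, 19.2% and 20.8% called lower. From day 0 to day 6, 32.6% of all tested genes were called higher and 31.1% lower in WT, and 36.6% and 33.5% in KO-labelled libraries. Of 30 nuclear genes of the respiratory chain, the citrate cycle and mitochondrial mass, 1 was higher in KO-labelled libraries on day 0 (Cox7a1, a muscle isoform of a cytochrome c oxidase subunit, 1.38, edgeR adjusted p = 0.0451), 12 on day 1, 25 on day 3 and 28 on day 6 with edgeR, while Vdac1, a channel of the outer mitochondrial membrane, was lower on days 1 and 3 (-0.35 and -0.39, edgeR adjusted p = 0.00153 and 0.000471). The list's median log2FC was 0.084, 0.16, 0.42 and 0.49, against -0.0011, 0.029, 0.040 and 0.0037 over all tested genes. On the log2(TPM + 1) scale the counts were 18 on day 3 and 23 on day 6 with limma. Over time in WT 23 of the 30 were lower on day 6 and 5 higher (median -0.43), and in KO-labelled libraries 12 were lower and 8 higher (median -0.13). The share lower lay well above that of all genes in WT and near it in KO-labelled libraries. The genotype-by-time interaction on day 6 was called higher for 14 of the 30 and lower for 0, against 13% of all tested genes called in either direction. The 1 call of day 0 was lost without WT replicate 1 or 2 or KO replicate 1 or 2. Day 1 gave 10 higher without KO replicate 2 (median 0.14), and in a fit of only the groups compared, which tested 27 of the 30, it gave 3 higher and 1 lower.

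Within that list the largest day 6 differences belonged to genes restricted to striated muscle. Cox6a2, the heart and muscle isoform of a cytochrome c oxidase subunit, had 100.2 CPM in KO-labelled libraries and 8.88 CPM in WT (log2FC 3.49, SE 0.176, edgeR adjusted p = 3.37e-13). Ckmt2, the mitochondrial creatine kinase of sarcomeric muscle, had 10.7 against 1.99 CPM (log2FC 2.42, SE 0.264, edgeR adjusted p = 1.41e-06). The summed TPM of all 30 was 9061 to 9242 in the day 6 libraries labelled KO and 6742 to 7078 in those of WT. In WT Cycs, which encodes cytochrome c, fell by 1.54 from day 0 to day 6, and Idh3a, a subunit of isocitrate dehydrogenase, by 1.17 (edgeR adjusted p = 4.41e-09 and 1.15e-10). At the other end of the list in WT, Cox6a2 rose from 0 CPM in both day 0 libraries to 8.88 CPM (edgeR adjusted p = 1.78e-11) and Vdac1 rose by 0.22 (edgeR adjusted p = 0.0436).

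**Figure D4:**
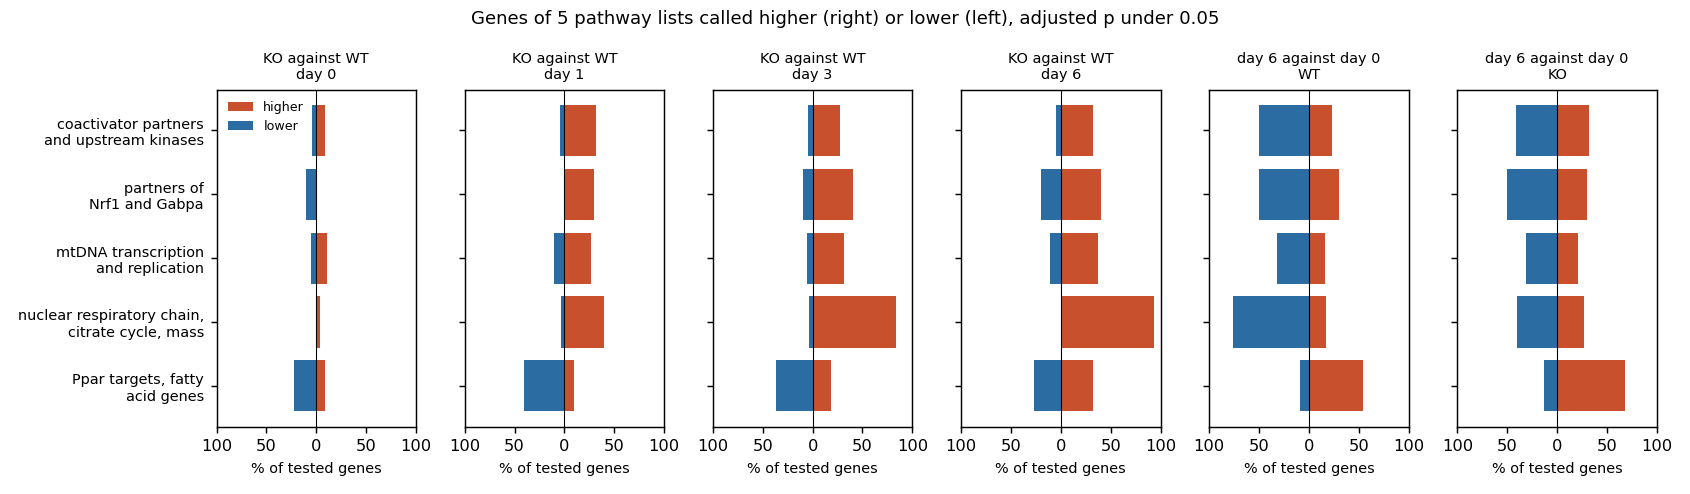
Share of the tested genes of 5 pathway lists called higher (right, orange) or lower (left, blue) with edgeR at an adjusted p under 0.05 (x axis, % of tested genes of the list), for KO-labelled libraries against WT on 4 days and for day 6 against day 0 in each genotype. The list of respiratory chain, citrate cycle and mass genes (30 genes) goes from 1 higher on day 0 to 28 on day 6 between genotypes, and has 23 lower over time in WT against 12 in KO-labelled libraries.

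Partners of the coactivators and the kinases upstream of them held more genes higher than lower between genotypes. Of 22 tested, 7 were higher and 1 lower on day 6 in KO-labelled libraries (median log2FC 0.15), and 2, 7 and 6 higher and 1, 1 and 1 lower on days 0, 1 and 3. On days 1, 3 and 6 the shares called higher lay close to or somewhat above those of all genes, and the shares called lower below them. The day 1 median of 0.19 was 0.049 without KO replicate 2, with 8 higher and 1 lower, and a fit of only the groups compared gave 4 higher and 1 lower on day 1 and 4 higher and 1 lower on day 0. Highest were the AMP-activated kinase subunits Prkaa2, the catalytic subunit of muscle (log2FC 1.80, SE 0.174, edgeR adjusted p = 1.24e-08), and Prkag3, a regulatory subunit typical of skeletal muscle (1.78, SE 0.198, edgeR adjusted p = 1.1e-07). Pparg, the adipogenic Ppar receptor, was the 1 lower gene on each day, at -0.72, -0.83, -1.01 and -0.82 on days 0, 1, 3 and 6 (edgeR adjusted p = 0.000467, 3.15e-05, 4e-06 and 2.94e-05). Over time in WT 5 rose and 11 fell by day 6, against 32.6% and 31.1% of all tested genes, among the latter the acetyltransferase Kat2a (-1.26) and the deacetylase Sirt1 (-1.31), both of which modify PGC-1 alpha (edgeR adjusted p = 1.12e-10 and 8.37e-09); Prkag3 rose by 3.53 and the coactivator Ncoa1 by 0.59 (edgeR adjusted p = 2.86e-09 and 0.000771). The 16 calls numbered 10 without WT day 0 replicate 1, WT day 6 replicate 1 or WT day 6 replicate 2, and 10 on both TPM scales with limma.

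Of 10 genes listed with Nrf1 and Gabpa, 4 were higher and 2 lower on day 6 in KO-labelled libraries (median log2FC 0.072). On day 1 3 were higher, on day 3 4 were higher, and 1 was lower on each of days 0 and 3. The list takes in Nfe2l1 and Nfe2l2, which are neither partners nor relatives of Nrf1 or Gabpa. The 2 lower genes of day 6 are near the 20.8% of all genes, and the counts of higher genes are small in a list of 10. Without KO replicate 2 the day 1 count was again 3 higher, with a median of 0.085 in place of 0.13. The day 3 calls fell from 5 to 2 without WT replicate 2 and to 3 without WT replicate 1, WT replicate 3 or KO replicate 2, the day 6 calls from 6 to 3 without KO replicate 2, and the day 0 call was lost without any 1 of the 5 libraries. The genes called on day 6 were mixed in kind: Nfe2l1, a stress-response factor, was higher by 0.63 and the cofactor Hcfc1 by 0.28, while the ETS factors Ets1 and Elk4 gave -0.39 and -0.29 (edgeR adjusted p = 1.37e-08, 0.0339, 0.00207 and 0.00988). Over time in WT 3 rose and 5 fell by day 6, against 32.6% and 31.1% of all tested genes. Gabpb1, whose protein pairs with that of Gabpa to activate transcription, fell by 0.86 and Hcfc1 by 0.96, whereas Nfe2l1 rose by 0.90 and Elk1 by 0.40 (edgeR adjusted p = 4.41e-09, 1.75e-07, 1.29e-10 and 0.000463).

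Of 19 tested genes that transcribe, copy or process mitochondrial DNA and RNA, besides Tfam and Tfb2m, 7 were higher and 2 lower on day 6 in KO-labelled libraries (median log2FC 0.18), with 2, 5 and 6 higher and 1, 2 and 1 lower on days 0, 1 and 3. The shares called higher on days 1 and 3 lay close to or somewhat above those of all genes. The day 0 calls fell from 3 to 0 without WT replicate 1 and to 1 without WT replicate 2 or KO replicate 3, and the day 1 calls from 7 to 4 without WT replicate 1 or 2. Day 1 gave 3 higher and 2 lower without KO replicate 2 (median 0.013 in place of 0.099), and 1 higher and 1 lower in a fit of only the groups compared. Polrmt, the mitochondrial RNA polymerase, was higher by 0.59 and Twnk, the mitochondrial DNA helicase, by 0.58 (edgeR adjusted p = 0.000231 and 6.69e-06). Lower were Polg2, the accessory subunit of the mitochondrial DNA polymerase (-0.56), and Primpol, a primase-polymerase (-0.60; edgeR adjusted p = 0.0226 and 0.00275). Over time in WT 3 rose and 6 fell by day 6, the latter near the 31.1% of all tested genes and the former below the 32.6%, with Primpol (1.72) and Mterf4 (0.31) up and the tRNA-processing Elac2 (-0.88) and the transcription factor Mterf3 (-0.72) down (edgeR adjusted p = 4.83e-08, 0.0258, 2.05e-09 and 2.86e-05). Transcripts encoded by mitochondrial DNA were not analysed here.

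The Ppar target genes of fatty acid uptake and oxidation held calls in both directions. Of 22 tested, 2, 2, 4 and 7 were higher and 5, 9, 8 and 6 lower in KO-labelled libraries on days 0, 1, 3 and 6 (median log2FC -0.15, -0.14, -0.091 and 0.046, the last below 0 with library size alone and on both TPM scales). On day 6 both shares lay somewhat above those of all genes. Without KO replicate 2 day 1 gave 3 higher and 10 lower (median -0.23). Higher on day 6 were Cd36, a fatty acid transporter, at 15.5 against 0.245 CPM (log2FC 5.95), and the thioesterase Acot2 (0.78), and lower were Acadm, the medium-chain acyl-CoA dehydrogenase (-0.83), and Ucp2, an uncoupling-protein family carrier (-0.93; edgeR adjusted p = 1.63e-11, 6.26e-05, 1.35e-07 and 7.12e-06). Over time 12 rose and 2 fell in WT by day 6, and 15 rose and 3 fell in KO-labelled libraries, against 32.6% and 31.1% of all tested genes in WT and 36.6% and 33.5% in KO-labelled libraries. In WT Mlycd, malonyl-CoA decarboxylase, rose by 1.38 and Acot2 by 0.76, while Pdk4, the kinase that closes pyruvate dehydrogenase, fell by 1.80 and Acadl by 0.51 (edgeR adjusted p = 8.08e-08, 0.000314, 7.33e-13 and 0.000189).

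Genes with a pattern like those of 2 members were taken by Pearson's r of log2(TPM + 1) over the 8 group means, which share libraries and depth, among 4018 genes of sufficient level and range; r is a description here. Nearest to Ppargc1a were Fam13c (r = 0.99, 2.60 to 36.6 TPM over groups), Lrig1, Ext1, Gas1 and Rnf122 (r = 0.99, 0.98, 0.98 and 0.98). Nearest to Esrra were Arhgap44 (r = 0.95, 3.46 to 11.02 TPM) and Coa4, an assembly factor of cytochrome c oxidase (r = 0.94), then Ppp1r14a, Cck and Ctsl (r = 0.94, 0.93 and 0.92). Esrrg, below 1 TPM in every group, was not used for this.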

How the data were processed

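The authors deposited 2 tables covering all 23 libraries: expected counts per gene symbol, stored as whole numbers, and TPM. The submitters' processing notes name Bowtie2, RSEM and the build mm10; versions, annotation, strand setting and trimming are not given in the sources used here. A split of reads between overlapping or similar genes is therefore the counting model's estimate.

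Counts were tested with edgeR 4.0.16 in R 4.3.3 (quasi-likelihood F-test, TMM, filterByExpr with a minimum count of 10 and a minimum total of 15, 1 group-means fit over 23 libraries, 13 contrasts). Adjustment was by Benjamini-Hochberg, per contrast, over 14187 genes, and 0.05 was the threshold. SEs of log2 fold changes derive from the F statistic. The members, lists and tests were chosen with earlier results of these data known. All members, Runx1 and, per list, up to 2 called genes at each end of the log2 fold changes, of at least 5 CPM, are named, for KO against WT on day 6 and day 6 against day 0 in WT. Atp5j, Trmt112, Cox7a1, Vdac1 and Pparg on other days were named after their values were seen. The CRE and E-box were added to the motifs after the first matches were seen. Floors of 3 counts cover counting error only.

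Alternatives were RLE scaling, library size only, no filter, genes of mean count 50 or above only, the tool DESeq2 1.42.0, limma 3.58.1 on log2(TPM + 1) and log2(TPM + 0.1), only the groups compared, a replicate block and each library left out. List counts under these were added after seeing the data. GC content was known for 93.5% of tested genes. The fit was tested on simulated data.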

Additional observations from a re-analysis of the deposited data

Results flagged for a closer look

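The rise or fall of Ppargc1b from growth medium to day 6 differed between genotypes by a test of the difference itself: the genotype-by-time interaction was 0.58 on the log2 scale (SE 0.165, edgeR quasi-likelihood test, adjusted p = 0.02). WT libraries went from 9.12 ± 1.04 (SD, n = 2) to 6.60 ± 0.179 CPM (SD, n = 3), and KO-labelled libraries from 10.4 ± 0.9996 to 11.3 ± 0.386 CPM (SD, n = 3 each). The groups of WT day 0 and KO day 0 overlapped, and those of day 6 did not. Over 20 alternatives the value ran from 0.41 to 0.69 and the adjusted p from 0.0154 to 0.217. The part of the higher myotube markers in the day 6 KO-labelled libraries was not tested. No group had the 4 samples that a check for outlying libraries needs.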

How the results depend on the processing

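Over the 13 comparisons of the 9 members other than Esrrg, of 801 values with 1 library left out 686 kept direction and side of the threshold, 67 lost the call, 6 gained it and 42 turned; of 1030 under other alternatives, 892 kept both, 71 lost the call, 12 gained it and 55 turned. None of those that turned was called. With 1 library left out, the number of members called ran from 1 to 3, 4 to 5, 4 to 5 and 5 to 6 between genotypes on days 0, 1, 3 and 6, from 3 to 5, 2 to 4 and 3 to 7 in WT on days 1, 3 and 6, from 2 to 6, 3 to 5 and 6 to 8 in KO-labelled libraries, and from 0 to 1, 0 to 0 and 0 to 1 for the interactions. These and the counts below take in Esrrg, called on day 6 between genotypes and in KO-labelled libraries, where its selection fixed the outcome. Without WT day 6 replicate 2 Esrrg was also called in WT on day 6, and the 7 there rests on it. With limma its day 6 interaction was called on both TPM scales. These counts are therefore not to be set against those of the 9 other members. On log2(TPM + 1) and log2(TPM + 0.1) with limma the counts were 2 and 2, 2 and 2, and 3 and 3 in WT on days 1, 3 and 6, and 3 and 3 in KO-labelled libraries on days 1 and 3; log2(TPM + 1) gave 1 on day 0 between genotypes and 1 for the day 3 interaction. Library size only gave 3 in WT on day 1, a fit of only the groups compared 2 in KO-labelled libraries on day 1, and no filter 0 for the day 6 interaction. The cause was not tested.

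Of the values given in the text, these turned, none of them called. On the 2 TPM scales Tfb2m between genotypes was -0.044 and -0.046 on day 0, -0.074 and -0.077 on day 3 and -0.187 and -0.194 on day 6, and 0.0053 and 0.0053 on day 1 against day 0 in KO-labelled libraries. Ppard on day 0 was -0.0395 with library size only and -0.0393 and -0.0397 on the TPM scales, and -0.013 to 0.086 with 1 library left out (lowest without KO replicate 3); on day 1 it was -0.302 to 0.011 (highest without KO replicate 2). Nrf1 on day 6 was -0.064 and -0.068 on the TPM scales. Gabpa on day 1 against day 0 in KO-labelled libraries was -0.071 to 0.229 with 1 library left out (lowest without KO day 1 replicate 2). The interaction of Ppargc1a was 0.26 and 0.0030 on day 1 on the TPM scales and 0.20 on day 6 on log2(TPM + 1). Ppargc1b on day 3 against day 0 in KO-labelled libraries was 0.0108 and 0.0134 on the TPM scales. The day 1 interaction of Nrf1 was -0.0119 with RLE scaling, -0.0215 with genes of mean count 50 or above, -0.0121 with DESeq2, -0.0033 and -0.0027 on the TPM scales and -0.0061 with only the groups compared. With 1 library left out it was -0.080 to 0.059 (lowest without WT day 1 replicate 2), that of Tfb2m -0.0099 to 0.219 (lowest without KO day 1 replicate 2) and that of Ppara -0.728 to 0.509 (lowest without KO day 1 replicate 1); with the replicate block that of Ppara was -0.108. Esrra on day 6 against day 0 in WT was -0.023 to 0.158 (lowest without WT day 6 replicate 2). The cause was not tested.

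Of 440 list counts under alternatives, 390 stayed within 1.5 times and 50 did not. Equal replicate numbers did not pair libraries: the deviations of 26 same-numbered pairs correlated at -0.24 to 0.12, and with the replicate block the members called numbered 3, 4, 6 and 6 between genotypes, 5, 6 and 6 over time in WT, 5, 5 and 8 in KO-labelled libraries, and 0, 0 and 1 for the interactions; the WT fall of Ppard on day 3 was called with the block (-0.332, edgeR adjusted p = 0.0434). Esrrg and Ppara are limited by depth, at 0 to 33 counts, and Ppargc1a on day 0 at 19 to 48.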
